A study of Cucumis melo with 27 samples.

Results

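CmACO1 is the melon gene for the ripening-associated form of ACC oxidase, and it was followed here as 1 row, MELO3C014437.2, of the 25200 genes counted in each of 27 RNA-seq libraries. The row was chosen by its ID. The count files carry IDs without gene names, so the name was assigned to this ID from outside the files, and its place in a genome is not analysed here. The libraries came from field-grown melon (Cucumis melo): fruit of cultivar TTDV and fruit of cultivar F39, each harvested at 20-25, 30-35, 40 and 45 days (d) after flowering, and leaves of F39 that were 14 days old, with 3 libraries in each of the 9 groups. No group carried a treatment or a transgene. Nothing in the labels ties the 3 libraries of a group to separate plants or fruits or says what part of the fruit was taken, so the p-values measure only the spread between libraries, which may be technical.

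ACC oxidase carries out the last step of ethylene synthesis in plants, the conversion of 1-aminocyclopropane-1-carboxylic acid (ACC) to ethylene. ACC itself is made from S-adenosylmethionine by ACC synthase. In fruits that ripen with a burst of ethylene, the hormone promotes its own synthesis, and melon holds both types with such a burst and types without one. Suppression of CmACO1 by an antisense transgene in Charentais melon is a classic example of a fruit with little ethylene and delayed ripening.

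For 12 of the 27 libraries, in 4 groups, the sample to which GEO attaches a file is not the sample whose title ends in the library number that heads the file's count column. Libraries 10 to 12 are TTDV 20-25 d by number and are attached to F39 45 d. Libraries 13 to 15 are TTDV 30-35 d by number and are attached to TTDV 20-25 d. Libraries 16 to 18 are TTDV 40 d by number and are attached to TTDV 30-35 d. Libraries 59 to 61 are F39 45 d by number and are attached to TTDV 40 d. Groups below follow the library number, and values for the attachment are given where these assignments differ. Both ways keep the same sets of 3 libraries together, so the level and the spread of a set do not depend on the choice, only its name. Total counts ranged from 6025615 to 28731038 per library, and the lowest count of CmACO1 was 339 in leaf replicate 2 (exact Poisson 95% interval 303.9 to 377.1), so that counting error, which is all this interval covers, was small beside the differences between libraries. The leaf and fruit labels were not checked by marker genes, because the IDs could not be paired with gene names.

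CmACO1 was detected in all 27 libraries, and its level spanned from 18.8 CPM (the gene's share of the library's counts, in parts per 1000000) to 36416 CPM. In 3 fruit libraries of 3 different groups it was among the most abundant transcripts of the fruit. It was the most abundant of all genes in library 5 (F39 30-35 d), with 3.64% of all counts. It was at rank 2 in library 8 (F39 40 d), with 2.51%, and at rank 4 in library 62 (TTDV 45 d), with 1.59%. These 3 libraries lay at 15930.0 CPM or more, whereas the other 21 fruit libraries lay between 74.8 and 2555 CPM, with a median of 565.7 CPM.

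**Figure D1:**
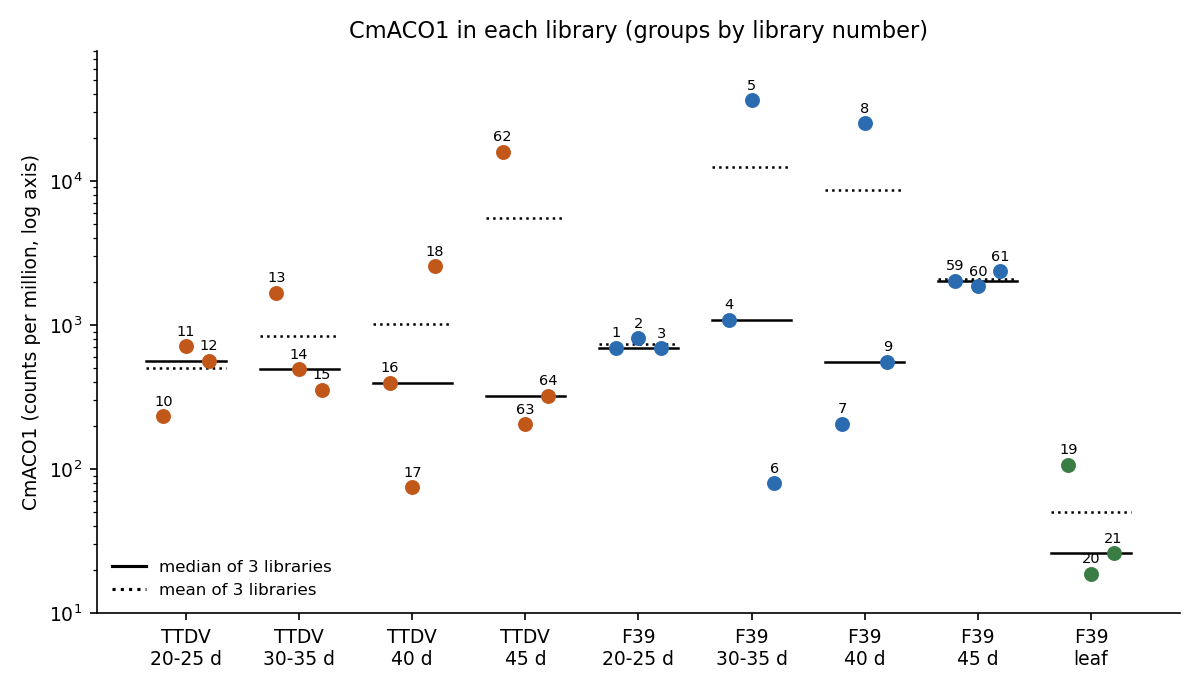
CmACO1 in CPM (log axis) in each of the 27 libraries, with groups by library number along the x axis and the library number beside each point; solid lines are group medians and dotted lines group means of 3 libraries. Libraries 5, 8 and 62 lie at 36416, 25111 and 15930.0 CPM, each apart from the other 2 libraries of its group, whereas F39 fruit at 20-25 d and at 45 d is tightly grouped.

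In TTDV fruit at 20-25 d, CmACO1 stood at 231.7, 712.5 and 565.7 CPM in replicates 1, 2 and 3. At 30-35 d it stood at 1680 CPM in replicate 1, 490.97 CPM in replicate 2 and 355.3 CPM in replicate 3. At 40 d the 3 libraries had 396.5, 74.8 and 2555 CPM. The first stages thus overlapped, and at 40 d 1 library lay above and 1 below all those of both earlier stages. At 45 d replicate 1 had 15930.0 CPM, while replicates 2 and 3 had 205.6 and 322.4 CPM. Those last 2 libraries lay below 2 of the 3 libraries of 20-25 d. The group means were 503.3 ± 246.4, 841.99 ± 728.6, 1009 ± 1349 and 5486 ± 9045 CPM from 20-25 to 45 d (SD, n = 3 each), so that from 40 d on the SD exceeded the mean.

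In F39 fruit at 20-25 d the libraries were close together, at 697.5, 809.9 and 693.0 CPM. At 30-35 d they had 1084, 36416 and 79.6 CPM, a range of 457-fold within 1 stage. At 40 d they had 206.4, 25111 and 555.5 CPM. In both of these groups 1 library, replicate 2, held nearly all of the group's signal, and at least 1 of the others lay below every 20-25 d library. At 45 d the libraries were again close, at 2024, 1850.1 and 2362 CPM, above all 3 libraries of 20-25 d and between the extremes of 30-35 and 40 d. The group means were 733.5 ± 66.2, 12527 ± 20695, 8624 ± 14279 and 2079 ± 260.4 CPM from 20-25 to 45 d (SD, n = 3 each).

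In F39 leaf CmACO1 had 106.9, 18.8 and 26.0 CPM, a mean of 50.6 ± 48.9 CPM (SD, n = 3). Of the 24 fruit libraries 22 lay above all leaf libraries, and the 2 exceptions were library 6 of F39 30-35 d and library 17 of TTDV 40 d, which lay between leaf replicate 1 and the other 2. Within fruit the order of the groups depended on the summary. By the median, the order from low to high was TTDV 45 d, TTDV 40 d, TTDV 30-35 d, F39 40 d, TTDV 20-25 d, F39 20-25 d, F39 30-35 d and F39 45 d. By the mean, it was TTDV 20-25 d, F39 20-25 d, TTDV 30-35 d, TTDV 40 d, F39 45 d, TTDV 45 d, F39 40 d and F39 30-35 d. Leaf was lowest by both. Of the 36 pairs among the 9 groups, 9 had ranges that did not overlap, and 6 of these set a fruit group above leaf. The other 3 set F39 45 d above F39 20-25 d, TTDV 20-25 d and TTDV 30-35 d, so that in the order by the median no neighbouring fruit groups were separated beyond their ranges. As attached, the highest median was that of TTDV 40 d, 2024 CPM, and F39 45 d had a median of 565.7 CPM. The names in both orders change likewise with the attachment. The same 3 pairs then set TTDV 40 d above F39 20-25 d, F39 45 d and TTDV 20-25 d without overlap. Such separation was common among the genes tested. It held in the same direction for 49.4% of them in F39 20-25 d over leaf and for 42.3% in F39 40 d over leaf. For F39 45 d over F39 20-25 d the share was 22.7%. No share was computed for the remaining pairs or for the count of 22 fruit libraries, so these counts do not set CmACO1 apart.

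The spread between libraries was large for CmACO1 by the standard of other genes. On the log2(CPM + 1) scale its SD was 4.43 in F39 30-35 d, against a median of 0.58 over 10472 genes averaging 5 CPM or more, a value reached or exceeded by few of them (percentile 99.8). The SD was 3.65 in F39 40 d (percentile 99.6), 3.45 in TTDV 45 d (percentile 99.8) and 2.54 in TTDV 40 d (percentile 98.6). In F39 20-25 d and F39 45 d it was 0.13 (percentile 7.9) and 0.18 (percentile 26.9), below the medians of 0.40 and 0.28 for these groups. The gene thus varied more than most in some groups and less than most in others. Leaf also varied, with an SD of 1.30 (percentile 98.4). Over all 9 groups, edgeR's biological coefficient of variation was 1.26 for CmACO1 and had a median of 0.484 over the 15130 genes tested, and 1196 genes exceeded 1.26.

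Differences between groups were tested by edgeR's quasi-likelihood F-test in 1 fit to all 27 libraries, with Benjamini-Hochberg adjustment over the 15130 genes that passed the filter on low counts and a threshold of 0.05. CmACO1 passed in 1 of 17 comparisons, and its unadjusted p was under 0.05 in 3. Those 3 were F39 40 d against leaf, F39 30-35 d against 20-25 d, and TTDV against F39 at 30-35 d. An unadjusted p under 0.05 was common there, with 8441, 3596 and 3877 of the 15130 genes. The fit uses 1 spread for a gene over all groups, which is larger than the gene's own spread in the tight groups and smaller than that in the wide ones. Fold changes are log2 values after TMM scaling, a correction for the few very abundant transcripts of a library. Its factors were 0.53 to 0.604 in leaf and 0.877 to 1.302 in fruit, so that the fitted differences from leaf are smaller than those of the CPM.

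**Figure D2:**
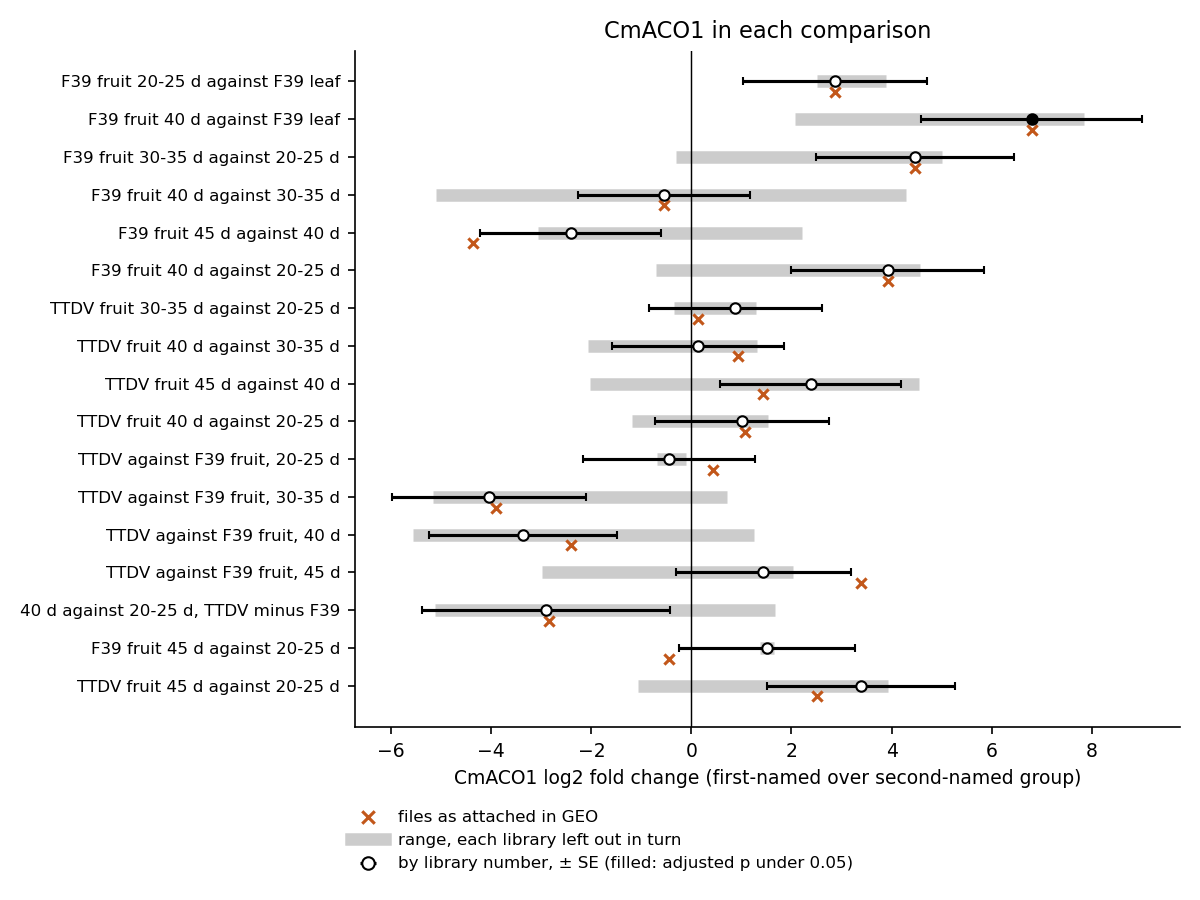
Log2 fold change of CmACO1 in 17 comparisons (x axis), each row naming the group on top of the ratio first; circles are edgeR estimates with groups by library number, whiskers are ± 1 SE, crosses are the estimates with files as attached in GEO, and grey bars give the range when each library of the groups compared is left out in turn. The filled circle, F39 fruit at 40 d against leaf, is the comparison that passed the threshold, and 13 of the 17 grey bars cross 0.

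F39 fruit at 40 d had more CmACO1 transcript than F39 leaf. The libraries did not overlap, as was the case in that direction for 42.3% of genes tested. Its log2 fold change in the fit was 6.80 (SE 2.21, adjusted p = 0.015 by edgeR), in a comparison in which edgeR called 49.2% of genes. This call rested on single libraries. When replicate 2 of 40 d was left out the estimate was 2.08 with adjusted p = 0.346, and without leaf replicate 2 or 3 it was 6.41 or 6.53, with adjusted p = 0.0577 or 0.0578 by edgeR.

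F39 fruit at 20-25 d also lay above leaf in every library, as did 49.4% of genes. The estimate, 2.87 (SE 1.84, adjusted p = 0.22 by edgeR), did not pass in the fit to all groups, where 41.1% of genes were called. With only these 2 groups fitted it was 2.86 (SE 0.60) with adjusted p = 0.00402 by edgeR, in a fit that called 49.6% of genes.

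Along F39 fruit development no step of CmACO1 passed the threshold. From 20-25 to 30-35 d the log2 fold change was 4.47 (SE 1.98, adjusted p = 0.176 by edgeR; 5.87% of genes called), and without replicate 2 of 30-35 d it was -0.30. Between 30-35 and 40 d it was -0.55 (SE 1.72, adjusted p = 0.936 by edgeR; 0.74% of genes called), and it ran from -5.11 without replicate 2 of 40 d to 4.29 without replicate 2 of 30-35 d. The estimate for 40 d against 20-25 d was 3.92 (SE 1.93, adjusted p = 0.136 by edgeR; 26.1% of genes called), and without replicate 2 of 40 d it was -0.71. In each of these 3 comparisons the sign of the estimate changed when 1 library of the 30-35 d or 40 d group was left out. DESeq2, whose estimate of spread differs, gave adjusted p = 0.0479 for 30-35 against 20-25 d (8.36% of genes called). For 40 against 20-25 d it gave adjusted p = 0.0392 (22.8% of genes called). DESeq2 was not refitted with single libraries left out.

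F39 fruit at 45 d was the group whose libraries were both high and alike. Against 40 d the log2 fold change was -2.41 (SE 1.81, adjusted p = 0.433 by edgeR; 7.45% of genes called), and without replicate 2 of 40 d it was 2.20, since the other 2 libraries of 40 d lay below all of 45 d. Against 20-25 d, a comparison added after the values were seen, the 3 libraries of 45 d lay above the 3 of 20-25 d, as was the case in that direction for 22.7% of genes. The log2 fold change was 1.51 (SE 1.75, adjusted p = 0.54 by edgeR; 31.7% of genes called) and stayed between 1.38 and 1.66 when any 1 library was left out. With only these 2 groups fitted it was 1.5 (SE 0.279) with adjusted p = 0.00224 by edgeR, in a fit that called 44.6% of genes. As attached in GEO, libraries 59 to 61 are TTDV 40 d and libraries 10 to 12 take their place as F39 45 d. The log2 fold change of F39 45 d was then -4.37 against 40 d (adjusted p = 0.0836 by edgeR; 38.7% of genes called) and -0.45 against 20-25 d (adjusted p = 0.972 by edgeR; 0.185% of genes called).

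In TTDV fruit the estimates for successive stages were 0.88 for 30-35 against 20-25 d (SE 1.73, adjusted p = 0.885 by edgeR; 0.284% of genes called) and 0.13 for 40 against 30-35 d (SE 1.72, adjusted p = 0.972 by edgeR; 26.2% of genes called). From 40 to 45 d the estimate was 2.38 (SE 1.81, adjusted p = 0.52 by edgeR; 1.86% of genes called). None passed the threshold, and each changed sign when 1 library was left out, to -0.34 without replicate 1 of 30-35 d, to -2.06 without replicate 3 of 40 d and to -2.03 without replicate 1 of 45 d. The step from 30-35 to 40 d, in which many genes were called, had the smallest estimate for CmACO1. Over the longer intervals the log2 fold change was 1.01 for 40 against 20-25 d (SE 1.73, adjusted p = 0.677 by edgeR; 35.1% of genes called) and 3.39 for 45 against 20-25 d, also added after the values were seen (SE 1.88, adjusted p = 0.156 by edgeR; 40.2% of genes called). These 2 estimates changed sign as well, to -1.18 without replicate 3 of 40 d and to -1.07 without replicate 1 of 45 d. As attached, the successive estimates were 0.13 (26.2% of genes called), 0.94 (2.79%) and 1.44 (0.297%). Those over the longer intervals were 1.08 (36.0% of genes called) and 2.51 (35.0%), and none of the 5 passed the threshold by edgeR.

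Between the cultivars CmACO1 did not pass the threshold at any stage. At 20-25 d the log2 fold change of TTDV over F39 was -0.45 (SE 1.72, adjusted p = 0.972 by edgeR; 0.185% of genes called) and the ranges overlapped. At 30-35 d it was -4.04 (SE 1.94, adjusted p = 0.194 by edgeR; 8.52% of genes called), and at 40 d it was -3.36 (SE 1.88, adjusted p = 0.566 by edgeR; 0.185% of genes called). These 2 differences became 0.72 and 1.25 without replicate 2 of the F39 group. At 45 d it was 1.44 (SE 1.75, adjusted p = 0.914 by edgeR; 0.297% of genes called), and it became -2.98 without replicate 1 of TTDV, whose other 2 libraries lay below all 3 of F39. The change from 20-25 to 40 d differed between TTDV and F39 by -2.91 on the log2 scale (SE 2.48, adjusted p = 0.761 by edgeR), a contrast in which edgeR called 0.0% of genes (0 of 15130, beside 1414 genes at an unadjusted p under 0.05 and 115 called by DESeq2). As attached, the differences between TTDV and F39 were 0.43 (0.218% of genes called), -3.91 (4.34%), -2.41 (7.45%) and 3.39 (40.2%) from 20-25 to 45 d, and the highest adjusted p among them was 0.984 and the lowest 0.156 by edgeR. With SEs of 1.72 to 1.94 on the log2 scale, these tests do not show that the cultivars were alike.

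The libraries of 1 harvest date also differed in the rest of their transcripts. A position was computed for each fruit library from the 10194 other genes that averaged 5 CPM or more in fruit, on a line from the mean of F39 20-25 d (0) to the mean of F39 40 d (1). A library of either end group was placed against the mean of the other 2. Whether this position follows development, the part of the fruit taken or handling was not tested. The libraries of TTDV and F39 at 20-25 d, all 3 of TTDV 30-35 d and library 4 of F39 30-35 d lay between -0.052 and 0.177, and CmACO1 in them was 231.7 to 1680 CPM. Libraries 6 and 17, at 0.561 and 0.69, were the only ones between 0.4 and 0.7 and had the lowest CmACO1 of all fruit, 79.6 and 74.8 CPM. Other bounds were not tried, and library 17 lay closer to library 64, at 0.733, than to library 6. Whether library 17 counts as intermediate thus depends on the upper bound. The remaining 12 libraries lay between 0.733 and 1.024, and CmACO1 in them ran from 205.6 to 36416 CPM.

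**Figure D3:**
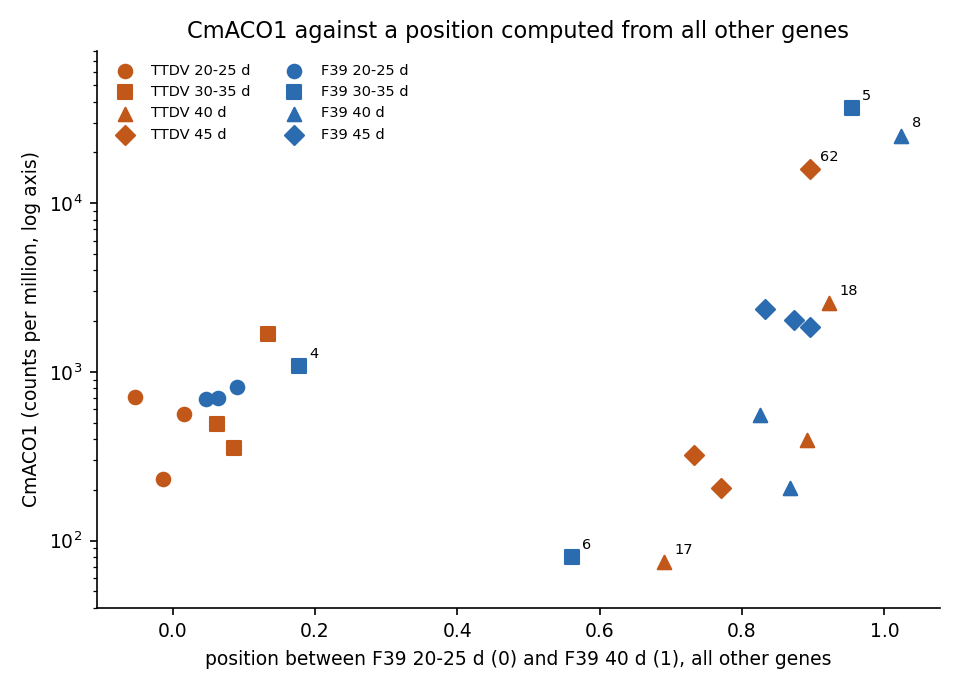
CmACO1 in CPM (y axis, log) against the position of each of the 24 fruit libraries between F39 fruit at 20-25 d (0) and at 40 d (1) by all other genes (x axis); color gives the cultivar and symbols the stage by library number, and numbers mark single libraries. The lowest values, 74.8 and 79.6 CPM, lie at positions 0.69 and 0.561, and the values above 10000 CPM at positions 0.895 to 1.024.

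On this line library 5 lay at 0.954, library 8 at 1.024 and library 62 at 0.895, and libraries with far less CmACO1 lay close to them. Library 16 (TTDV 40 d) at 0.892 had 396.5 CPM, and library 7 (F39 40 d) at 0.868 had 206.4 CPM. Library 8 belongs to the group that sets the far end, so the line was also drawn to the mean of F39 45 d by library number, libraries 59 to 61. That alternative was added after the data were seen and depends on the assignment of files. GEO attaches libraries 59 to 61 to TTDV 40 d, and libraries 10 to 12 to F39 45 d. Libraries 10 to 12 lay between -0.052 and 0.016 on the first line, and no line was drawn to them. Both lines share their start group and genes, so the line to libraries 59 to 61 is not a separate test. On it libraries 6 and 17 lay at 0.459 and 0.617, between the early libraries, at 0.107 or less, and all others, at 0.681 or more. Library 17 was closer there to library 9, at 0.681, than to library 6. On the same line libraries 5, 8 and 62 lay at 0.802, 0.863 and 0.964. Library 5, which had the most CmACO1, was there exceeded by 9 libraries, among them library 63 at 0.88 and library 64 at 0.895, so that its place near the far end depended on the end point chosen.

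The genes whose pattern was most like that of CmACO1 were found by Pearson's correlation of log2(CPM + 1) over the 24 fruit libraries, among 10194 genes averaging 5 CPM or more in fruit. The median correlation of these genes was -0.095, with 5 genes above 0.8 and 11 below -0.8. The libraries share their depth and scaling with CmACO1, and the 3 libraries above 10000 CPM lie apart from the rest, so the correlation within the other 21 is given beside each value. The files give these IDs no names and no roles are assigned to them here.

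MELO3C005616.2 was closest, with r = 0.872 over 24 libraries (Spearman's rho 0.69) and r = 0.596 within the 21. It had 2477, 1841 and 2228 CPM in libraries 5, 8 and 62, and 36.2 to 404.4 CPM in the other 21. In leaf it had 2.94, 0.833 and 2.61 CPM. The highest values after those 3 libraries were in library 60 of F39 45 d and library 18 of TTDV 40 d (301.4 CPM), in which CmACO1 was also high.

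MELO3C013129.2 (r = 0.839, rho 0.738, and 0.469 within the 21) was detected in few libraries. It had 131.4, 164.9 and 90.5 CPM in libraries 5, 8 and 62. In 17 of the other 21 fruit libraries and in all 3 leaf libraries it had no count, and its highest value there was 2.65 CPM, in library 18. It passed the minimum of 5 CPM only through those 3 libraries and was picked for its likeness to CmACO1, so this pattern follows from the choice, and its r within the 21 rests on the few libraries with a count.

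MELO3C018490.2 (r = 0.838, rho 0.551, and 0.502 within the 21) had 335.9, 224.8 and 111.0 CPM in libraries 5, 8 and 62 and 71.1 CPM in library 18, with a median of 0.537 CPM over the 21. In leaf it had 205, 16.9 and 52.3 CPM, above that median in each library. MELO3C018490.2 also passed the minimum of 5 CPM only through libraries 5, 8 and 62 and was picked for its likeness to CmACO1. Its high values in those libraries thus follow from the choice. MELO3C025766.2 (r = 0.819, rho 0.658, and 0.588 within the 21) moved over a narrower range, with 96.1, 62.5 and 48.1 CPM in libraries 5, 8 and 62 and 12.03 to 53.5 CPM elsewhere in fruit, and it was higher in leaf replicates 1 and 3 (187 and 108 CPM) than in any fruit library. MELO3C010162.2 (r = 0.804, rho 0.611, and 0.571 within the 21) had 815, 159.4 and 576.7 CPM in libraries 5, 8 and 62. Its values in F39 45 d, at 40.2, 162.8 and 69.6 CPM, and in library 18, at 81.8 CPM, stood above those of the remaining fruit libraries.

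**Figure D4:**
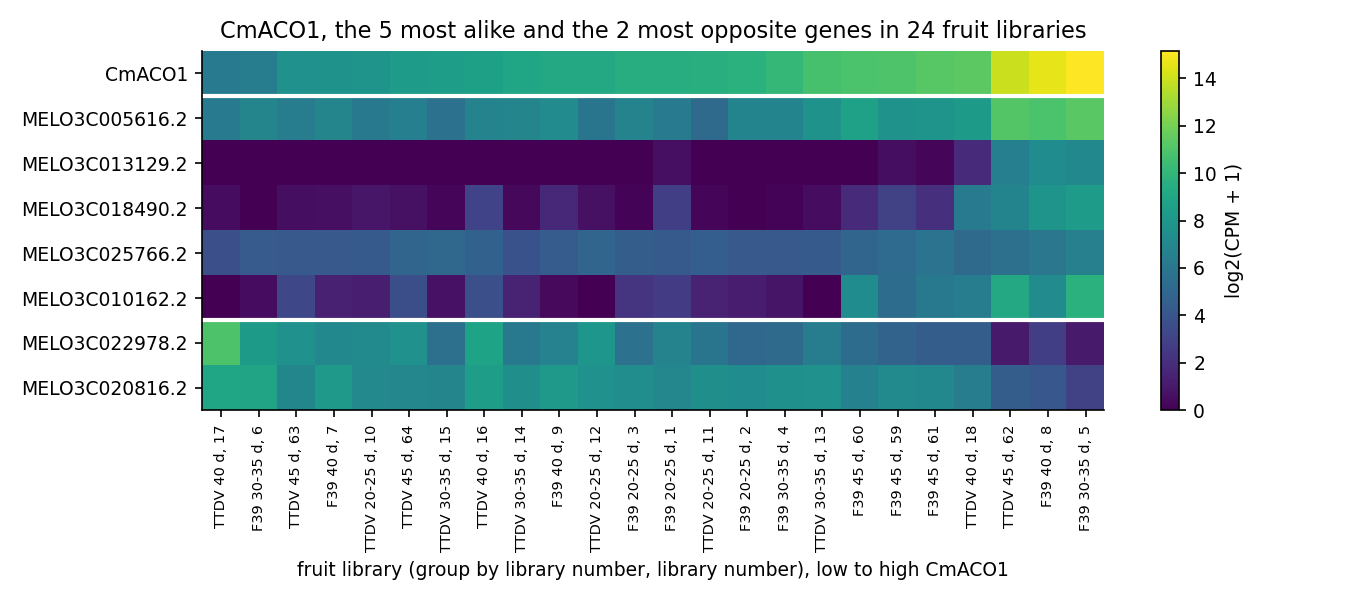
Log2(CPM + 1), as color, of CmACO1 (top row), the 5 genes most like it and the 2 most opposite to it (rows) in the 24 fruit libraries (columns), ordered from low to high CmACO1 and labelled by group and library number. MELO3C013129.2 reaches 90.5 CPM or more in the last 3 columns and at most 2.65 CPM in the others, and MELO3C022978.2 runs the opposite way to CmACO1.

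The gene most opposite to CmACO1, MELO3C022978.2, had r = -0.914 over 24 libraries, rho -0.884 and r = -0.824 within the 21. It had 1.15, 6.15 and 1.12 CPM in libraries 5, 8 and 62. It was highest in library 17, at 1925 CPM, followed by library 16, at 444.96 CPM, where CmACO1 had 396.5 CPM. MELO3C022978.2 had 299.3 CPM in library 6, which together with library 17 had the lowest CmACO1 in fruit. In leaf, where CmACO1 was also low, it had 1.70, 0.278 and 0.87 CPM, and over all 27 libraries its r was -0.252. Among the other 21 libraries it was lowest in library 18, at 21.2 CPM. MELO3C020816.2 (r = -0.885, rho -0.606, and -0.636 within the 21) had 6.76 to 21.3 CPM in libraries 5, 8 and 62 and reached 490.5 and 464.9 CPM in libraries 17 and 6. Without the 3 libraries, the r within fruit was -0.824 for MELO3C022978.2 and between 0.469 and 0.596 for the 5 most alike genes. These genes were picked over the 24 libraries, which include the 21, so the values within the 21 are descriptions and do not test the relation.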

How the data were processed

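The authors deposited raw counts, whole numbers for each gene, in 1 file per library. Per the labels' protocols, RNA of powdered frozen tissue was extracted with Trizol and columns, treated with DNase and made into libraries with a NuGen mRNA-seq kit. The submitters' processing notes name STAR 2.5.4b and edgeR 3.12.1 without saying what each did. Not given in the sources used here were the counter, genome build, annotation, strand setting and handling of multiply mapping reads, so reads shared with near-identical ACC oxidase genes could not be assessed.

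Files were matched to titles by the library number in the column header, and the GEO attachment was an alternative. No 2 files were identical (0 pairs). Counts were fitted in edgeR 4.0.16 (R 4.3.3, filterByExpr, TMM, robust quasi-likelihood, 1 mean per group). The fit was tested on simulated data in which each gene had the spread usual for its abundance. That test does not cover a gene as variable between libraries as CmACO1. Alternatives were DESeq2 1.42.0, median-of-ratios scaling, no or a stricter filter (1 CPM in 3 libraries, mean 5 CPM), only the groups compared, and each library left out in turn. Named genes were MELO3C014437.2, the 5 most alike and the 2 most opposite by Pearson's r. A list of ethylene genes by product name could not be used, since 0 of 25200 IDs matched the reference table. The gene, comparisons and lists were chosen with earlier results of these data known. Figures used Python 3.11.15 and matplotlib 3.10.9.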

Additional observations from a re-analysis of the deposited data

How the results depend on the processing

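Since 16 of 17 comparisons did not pass in the first place, a refit that also did not pass says little of stability, and for 5 comparisons within F39 leaf and fruit up to 40 d the attachment leaves the libraries as they are. With files as attached in GEO, TTDV over F39 at 20-25 d turned to 0.43 and F39 45 over 20-25 d to -0.45. With only the groups compared, F39 20-25 d over leaf (2.86) and F39 45 over 20-25 d (1.5) passed, in fits that called 49.6% and 44.6% of genes. With DESeq2, F39 30-35 and 40 over 20-25 d (4.37 and 3.99) passed, where 8.36% and 22.8% of genes were called. Leaving out 1 library in turn, log2 fold changes ran from 2.08 to 7.84 for F39 40 d over leaf (passing in 3 of 6 fits), from -0.30 to 5.01 for F39 30-35 over 20-25 d, from -5.11 to 4.29 for 40 over 30-35 d, from -3.07 to 2.20 for 45 over 40 d and from -0.71 to 4.56 for 40 over 20-25 d. In TTDV they ran from -0.34 to 1.30 for 30-35 over 20-25 d, from -2.06 to 1.31 for 40 over 30-35 d, from -2.03 to 4.55 for 45 over 40 d, from -1.18 to 1.53 for 40 over 20-25 d and from -1.07 to 3.93 for 45 over 20-25 d. For TTDV over F39 the lowest and highest were -5.17 and 0.72 in the 30-35 d groups, -5.56 and 1.25 in the 40 d groups, -2.98 and 2.03 in the 45 d groups, and -5.13 and 1.67 for the difference in the change from 20-25 to 40 d. A lone left-out library changes both a group mean and the spread, and beyond that the cause was not tested. The share of all genes called also moved by over 1.5 times, or from 0.0%, under at least 1 setting in each of the 17 comparisons. For F39 40 over 20-25 d it ran from 14.9% to 35.4%, against 26.1%. The difference in the change from 20-25 to 40 d moved from 0.0% to 0.533% by DESeq2. For F39 20-25 d and 40 d over leaf only the fit without a filter moved the share so far. That fit tested 21700 genes instead of 15130, and called 5792 and 6939 instead of 6223 and 7442. Of the 7 genes named for their likeness, 3 were still among the 5 highest or 2 lowest by Spearman's correlation, 1 over all 27 libraries, 1 without the 3 libraries above 10000 CPM and 2 without the 2 libraries farthest from the median. No paired analysis was possible because the labels number libraries, not replicates shared between groups.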

Other observations

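Ranking genes by Spearman's correlation with CmACO1 over the 24 fruit libraries, in which the size of the 3 highest values carries less weight, put other genes beside it. MELO3C017434.2 came first (rho 0.773), with 38.3 CPM in library 5 and a median of 3.61 CPM over fruit. MELO3C013910.2 (rho 0.718) moved less, between 76.8 and 375.1 CPM, with its highest value in library 8. MELO3C009822.2 (rho 0.692) was highest in library 62, at 156.2 CPM. On the opposite side MELO3C014876.2 (rho -0.811) was lowest in library 5, at 2.16 CPM, and highest in library 7, at 41.2 CPM. The genes were picked by their values in these libraries, so the correlations are descriptions.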
